A study of Homo sapiens with 4 samples.

Results

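The comparison of isorhamnetin (ISO) with control in the gastric cancer cell line AGS-1 rested on 2 of the 4 libraries of the series, the untreated AGS-1 library and the ISO-treated one, and on all 2897 genes of the deposited table. Members were the AGS-1 columns of that table, matched by name to the sample titles. The study asked how ISO, a flavonoid found in fruits and medicinal plants, acts on gastric cancer cells, and it sequenced the RNA of AGS-1 and of a second line, HGC-27, with and without the compound. The labels describe AGS-1 as a gastric adenocarcinoma cell of wild-type genotype, grown in RPMI-1640 medium with fetal bovine serum. The treated cells received ISO at 50 μM for 24 h by the labels, while the text of the study gives a lower dose for the sequenced cells, so the dose is uncertain. The control was labelled untreated, and its labels name no vehicle, while the study names a DMSO control for its proliferation assay. The characteristics field spells the line AGS and the titles AGS-1. There was 1 library for each condition, although the text of the study speaks of duplicates, so no difference below has a replicate check and no p-value is given.

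Values were FPKM, fragments per kilobase of gene scaled by the depth of the library. Each gene's value was a whole multiple of the step that 1 fragment is worth, which gave back the fragment counts and a total of 15235004 fragments for the control library and 15957590 for the ISO library. The 2897 genes held 78.5% of the control fragments and 64.4% of the ISO fragments. How these genes were selected is not given in the sources used here, and the part of that gap in the shifts below was not tested. Ratios are log2 of ISO over control after adding 1 FPKM to each value, which understates the change of low genes. Folds are ratios of depth-scaled fragments without that addition, and their 95% intervals (exact binomial) cover counting error only. Without molecular identifiers, PCR copies are counted as separate fragments, so the intervals are too narrow by an unknown amount.

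Cultured epithelial cells make their own cholesterol and fatty acids through enzymes whose genes are switched on by the SREBP transcription factors when membrane sterol runs low. INSIG proteins hold SREBP in the endoplasmic reticulum when sterol is plentiful. Mitochondria carry a small genome of their own, read as long transcripts from both strands and cut at the tRNAs into mRNAs, rRNAs and tRNAs, while most respiratory chain subunits are encoded in the nucleus. Keratins, junction proteins, integrins and the actin cytoskeleton give an epithelial sheet its shape and hold.

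AGS-1 cells under ISO held more mRNA of cholesterol synthesis and of some fatty acid synthesis genes, more RNA of the mitochondrial genome, and less mRNA of tight junctions, keratins, actin, annexins and S100 proteins and of the receptor genes EGFR, EPHA2 and MET. At least 2-fold higher were 24 genes (0.828% of 2897), and at least 2-fold lower were 192 (6.63%). The median log2 ratio of all genes was -0.29, and 78.6% of genes had a ratio below 0. Relative to that median, 166 genes (5.73%) lay at least 1.5-fold above and 292 (10.1%) at least 1.5-fold below. Scaling set the balance of the 2-fold counts. Median-of-ratios scaling moved the all-gene median up by 0.29 and gave 54 genes higher and 67 lower. Upper-quartile scaling moved it by 0.39 and gave 62 and 44, and equal sums outside the mitochondrial genome moved it by 0.44 and gave 77 and 38. For this reason lists are described below relative to the all-gene median.

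The ratio went with level. In 10 equal bins of the table by mean FPKM of both AGS-1 libraries, the median log2 ratio ran from 0.00 in the lowest bin, below 12.8 FPKM, to -0.57 in the highest, above 113 FPKM. Of the 289 genes in the lowest bin 30 were listed at 0 in both libraries, so their ratio is 0 by construction. The lowest bin lay 0.28 above the all-gene median, 0.29 above it with 0.1 FPKM added instead of 1 FPKM, and 0.05 above it under median-of-ratios scaling. With a mean of 1 FPKM or more it lay 0.19 above. Across genes, which are not independent replicates, Spearman's rho between ratio and mean FPKM was -0.37, against 0.07 with gene length and -0.09 with the GC percent of the longest transcript, known for 2875 genes. Medians over 5 bins of GC percent ran from -0.25 in the lowest bin to -0.36 in the highest.

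**Figure D1:**
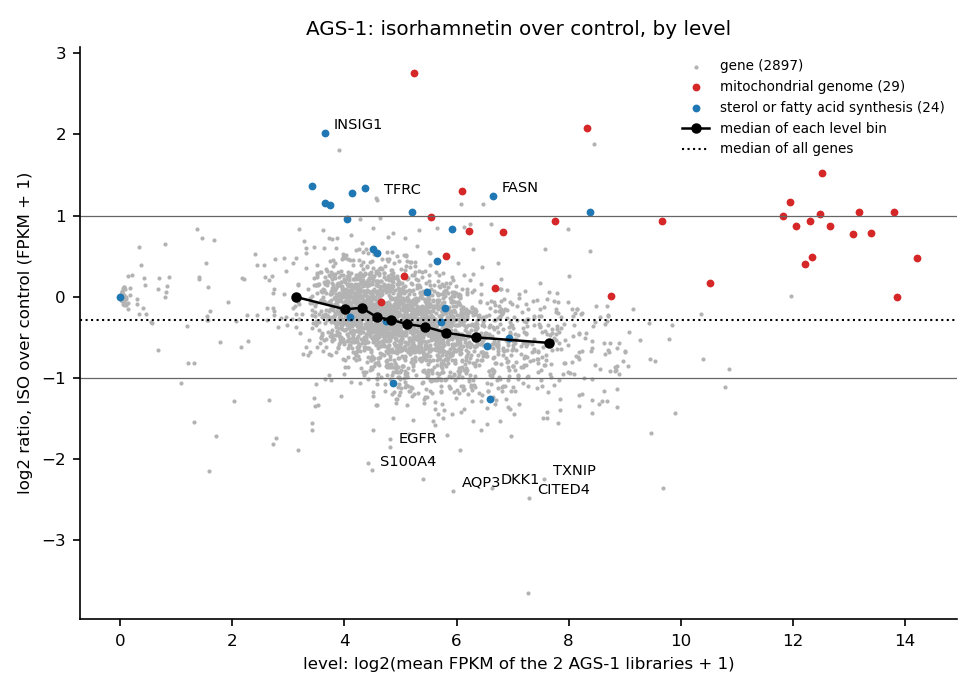
Log2 ratio of ISO over control against log2 mean FPKM in AGS-1, 1 point per gene, with the medians of 10 level bins (black) and of all genes (dotted, -0.29). Grey lines mark 2-fold; mitochondrial genes (red) and most sterol and fatty acid genes past the upper line (blue) lie above the level trend.

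By chromosome, medians of the 23 nuclear chromosomes in the table lay within a narrow band, from -0.36 on chromosome 19 (271 genes) to -0.17 on chromosome 21 (25 genes). The mitochondrial genome stood at 0.87 with 29 genes, none of them 2-fold lower. On chromosome 19 the most abundant gene was FTL, the ferritin light chain, at 3996 FPKM in the control and 4008 FPKM under ISO. It was followed by GDF15, a secreted stress cytokine, at 1420 and 1226 FPKM, and by the ribosomal protein gene RPL13A at 943 and 545 FPKM. On chromosome 21 APP, the amyloid precursor, went from 263 to 148 FPKM. The pseudogene PPIAP22 stood at 125 and 111 FPKM, and PTTG1IP at 107 and 66.5 FPKM.

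By biotype, the 2725 protein-coding genes had a median log2 ratio of -0.29. The 88 processed pseudogenes stood at -0.55, with 10 at least 2-fold lower (11.4%, against 6.63% of all genes). The most abundant, RPS28P7 and RPS2P5, are copies of ribosomal protein genes, and whether they shared reads with the parent genes was not tested. The 17 long noncoding RNAs had a median of 0.00, which is the value of the 1 member listed at 0 in both libraries. NORAD, which binds Pumilio proteins, was at 170 FPKM in the control and 140 FPKM under ISO, NEAT1, the scaffold of paraspeckles, at 64.3 and 64.5 FPKM, and MALAT1 of nuclear speckles at 59.5 and 65.5 FPKM. The 9 snoRNAs (0.55) and 8 microRNA genes (0.77) rested on few fragments, 7 and 29 for MIR3153 and 20 and 50 for MIR616. The most abundant microRNA gene, MIR3189, had 169 and 267 fragments. MIR1244-2 went the other way, with 99 and 52, and no other microRNA gene lay below the all-gene median. Short genes of these kinds lie inside host transcripts, whose fragments cannot be told apart from theirs.

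Markers fitted the label of an epithelial line. Of 20 epithelial markers 15 were in the table, and their summed level was 3734 FPKM in the control and 2466 FPKM under ISO. KRT19 was the most abundant, at 598 and 332 FPKM, and EPCAM, a surface protein of epithelial cells, stood at 248 and 167 FPKM. The median of the list relative to all genes was -0.29, and centred within level bins it was -0.03, an alternative chosen after seeing the data. Of 20 mesenchymal markers 8 were in the table, with sums of 83.9 and 48.7 FPKM and a median control level of 0.368 FPKM. Their median ratio was 0.25 above all genes, but a gene at 0 in both libraries lies 0.29 above by construction. That median is therefore no sign of a rise. It was -0.01 when centred within level bins, and its lowest value under the other settings was -0.79. S100A4, from 35.5 to 7.29 FPKM, made up most of the drop in the sum. COL6A1, a collagen VI chain, was the most abundant at 38.0 and 33.7 FPKM. VIM, the filament protein of mesenchymal cells, stood at 0.697 and 0.860 FPKM, and TWIST1 and COL6A2 were listed at 0 in both libraries. Of 12 blood and immune markers only LYZ, which gastric epithelium also makes, was in the table (594 and 314 FPKM), and of 8 endothelial markers only EGFL7, with 1 fragment in the control and 0 under ISO. The remaining markers were not analysed here. In bulk RNA, fewer cells of a type and less RNA per cell cannot be told apart.

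Leaving out genes whose mean lay below 1 FPKM, the last of the 15 largest rises was MVD at a log2 ratio of 1.15, and the last of the 15 largest falls was IFITM2 at -1.82. The rises included sterol and fatty acid genes (INSIG1, IDI1, DHCR7, FASN and MVD among them), mitochondrial RNAs (MT-TD, MT-TL1, MT-TN, MT-TG, MT-CYB and the nuclear copy MTND2P28), the transferrin receptor gene TFRC and the microRNA genes MIR3153 and MIR616. MTND2P28 went from 149 to 554 FPKM, 3.71-fold higher (3.54 to 3.88), against 1.90-fold (1.88 to 1.92) for MT-ND2, the gene it copies. The other nuclear copies lay near the all-gene median, MTATP6P1 at 0.06 below it (1027 and 809 FPKM) and MTCO1P12 at 0.15 above it (80.0 and 72.7 FPKM). Whether reads were shared between copies and mitochondrial genes was not tested.

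The falls opened with an unannotated gene model on an alternative haplotype of the major histocompatibility complex, at 288 FPKM in the control and 21.9 FPKM under ISO, 13.1-fold lower (95% interval 11.6 to 14.9). CITED4, a cofactor of the CBP and p300 acetyltransferases, went from 264 to 46.5 FPKM, 5.68-fold lower (5.31 to 6.09). AQP3, a water and glycerol channel, went from 102 to 18.6 FPKM, 5.50-fold lower (5.11 to 5.92). TXNIP, an inhibitor of thioredoxin and of glucose uptake, went from 312 to 65.1 FPKM, 4.79-fold lower (4.63 to 4.97). CD83, a surface protein known from dendritic cells, had 141 fragments in the control and 4 under ISO, 36.9-fold lower with a wide interval (14.1 to 137).

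Other members of the 15 falls were adhesion, signalling and stress genes. CTNNAL1, an alpha-catenin relative, went from 69.1 to 13.8 FPKM, and PHLDB2, which anchors microtubules near the basal membrane, from 74.9 to 18.2 FPKM. TRIB3, a pseudokinase of the stress response, went from 13.2 to 2.82 FPKM. PKDCC, a secreted tyrosine kinase, went from 104 to 27.4 FPKM, and IFITM2, an interferon-induced membrane protein, from 9.28 to 1.91 FPKM. DKK1, S100A4, ESAM and EGFR are given with their lists.

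Cholesterol synthesis was the list with the largest median when all levels were used. Of 25 sterol synthesis and uptake genes 14 were in the table, with a median of 1.29 above all genes, 10 at least 1.5-fold above it (background 5.73%), 7 at least 2-fold higher (0.828% of all genes) and 1 at least 2-fold lower (6.63%). This median depended on members of low level: over the 6 members with a mean of 20 FPKM or more it was 0.57, below the 1.5-fold line, while the mitochondrial mRNAs and tRNAs stood at 1.24 and 1.26 under that filter. INSIG1, the sterol-regulated anchor of SREBP and itself an SREBP target, went from 3.99 to 19.2 FPKM, 4.81-fold higher (4.16 to 5.58). In the mevalonate part of the pathway HMGCS1, which makes HMG-CoA, went from 7.42 to 17.4 FPKM. MVD, which makes isopentenyl diphosphate, went from 6.79 to 16.3 FPKM, 2.40-fold higher (2.16 to 2.67). IDI1, which isomerises that product, went from 4.98 to 14.3 FPKM, 2.88-fold higher (2.54 to 3.27), and FDPS, which joins the units to farnesyl diphosphate, from 18.4 to 27.3 FPKM. PMVK, the kinase between these steps, went the other way, from 38.6 to 17.9 FPKM, 2.16-fold lower (1.87 to 2.50).

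The later steps were higher as well. SQLE, which oxidises squalene, went from 10.2 to 20.8 FPKM and MSMO1, which removes methyl groups from the ring, from 23.2 to 49.0 FPKM. DHCR7, a reductase of the last steps, went from 10.7 to 28.6 FPKM, 2.68-fold higher (2.50 to 2.87). EBP and SREBF2 lay 0.03 and 0.15 above the median.

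Fatty acid synthesis moved in part. Of 21 genes 10 were in the table, with a median of 0.31 above all genes, 4 at least 1.5-fold above it (background 5.73%) and 1 below (10.1%). FASN, the fatty acid synthase, went from 58.7 to 140 FPKM, 2.39-fold higher (2.33 to 2.45), on 8335 and 20872 fragments. SCD, which desaturates stearate, went from 217 to 449 FPKM, 2.07-fold higher (2.03 to 2.11). ACLY and ACSS2, which supply acetyl-CoA, stood at 41.7 and 57.1 FPKM and at 17.1 and 26.3 FPKM. ELOVL1, which lengthens saturated chains, went from 136 to 56.0 FPKM, 2.42-fold lower (2.30 to 2.54). ELOVL5 was listed at 0 in both libraries, so its place above the all-gene median is set by construction. As a middle member it helps to set the list median. That median ran from 0.18 to 0.42 under the other scalings, pseudocounts and filters.

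**Figure D2:**
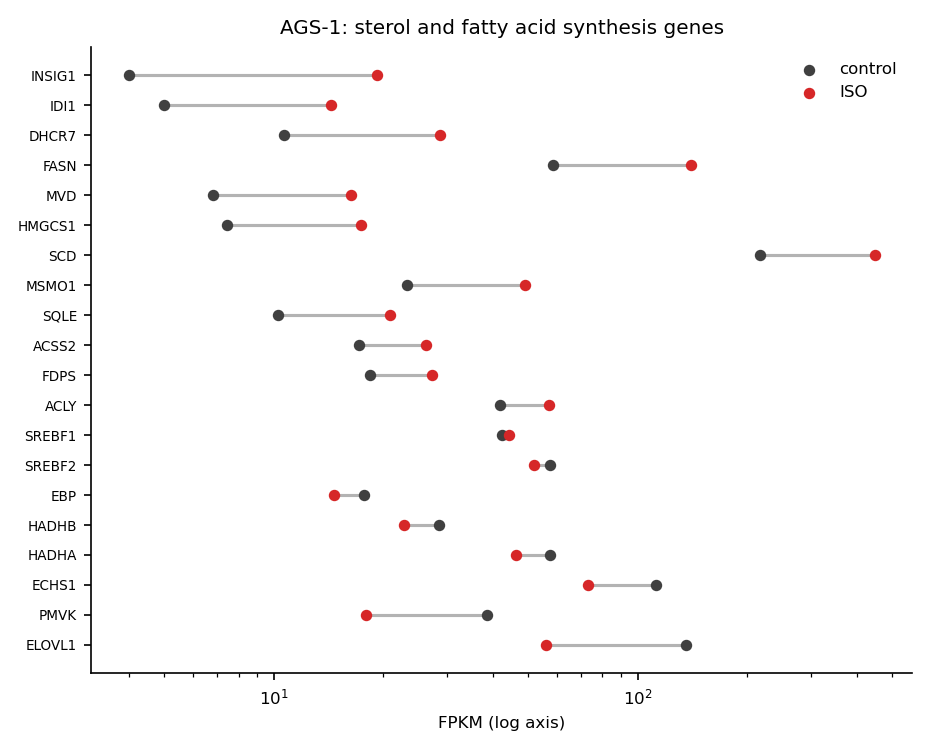
FPKM on a log axis of the sterol and fatty acid synthesis genes in the AGS-1 control (black) and ISO (red) libraries, ordered by log2 ratio; ELOVL5, at 0 in both, and a few other members are not drawn. INSIG1 at the top goes from 3.99 to 19.2 FPKM and ELOVL1 at the bottom from 136 to 56.0 FPKM.

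The promoters of the sterol genes are shown because these members moved together. RefSeq promoter windows (GRCh38.p14) were at hand for 10 of the 14, and the 250 bases before the start were searched on both strands for CCAAT, the letters of the NF-Y box, for TCACNCCAC, a form of the sterol regulatory element, and for CACGTG, the E-box. CCAAT lay in at least 1 window of 9 of the 10, and of all 7 past 1.5-fold, against 37.0% of 27305 genes with a window and 44.3% of the 2253 table genes with one. TCACNCCAC lay in 1 of the 10 (SREBF2), against 1.09% of all genes and 1.33% of the table genes, and CACGTG in 1 of the 10 (INSIG1), against 7.73% and 13%. Of the fatty acid genes, CCAAT lay in 5 of 9. A match describes the letters and is no evidence of binding. Of the members past 1.5-fold with a single window, 4 are printed 5′ to 3′ in lower case, with CCAAT and its complement ATTGG in capitals.
INSIG1, chr7:155297628-155297877, plus strand: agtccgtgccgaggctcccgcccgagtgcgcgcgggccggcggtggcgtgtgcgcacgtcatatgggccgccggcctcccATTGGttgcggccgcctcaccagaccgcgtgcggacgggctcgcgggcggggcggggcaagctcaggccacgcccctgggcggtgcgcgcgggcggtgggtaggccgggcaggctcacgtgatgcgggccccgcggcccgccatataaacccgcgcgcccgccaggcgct
MVD, chr16:88663092-88663341, minus strand: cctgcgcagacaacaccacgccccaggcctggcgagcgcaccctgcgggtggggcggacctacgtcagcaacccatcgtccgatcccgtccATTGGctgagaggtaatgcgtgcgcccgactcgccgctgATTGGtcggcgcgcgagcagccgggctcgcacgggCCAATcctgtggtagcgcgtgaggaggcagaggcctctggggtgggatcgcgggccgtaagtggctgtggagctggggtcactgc
MSMO1, chr4:165327419-165327668, plus strand: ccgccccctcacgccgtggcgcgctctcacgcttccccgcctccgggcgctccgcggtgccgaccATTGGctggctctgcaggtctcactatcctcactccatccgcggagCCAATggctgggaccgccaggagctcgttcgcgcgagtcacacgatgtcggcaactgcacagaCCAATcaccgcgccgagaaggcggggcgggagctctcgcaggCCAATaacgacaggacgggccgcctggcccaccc
FDPS, chr1:155308616-155308865, plus strand: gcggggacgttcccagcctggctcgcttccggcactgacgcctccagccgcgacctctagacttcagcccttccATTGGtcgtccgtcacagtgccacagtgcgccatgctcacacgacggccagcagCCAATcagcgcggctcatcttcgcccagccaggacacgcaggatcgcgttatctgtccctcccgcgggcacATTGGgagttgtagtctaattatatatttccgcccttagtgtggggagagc
INSIG1 held 1 match, MVD and FDPS 3 each and MSMO1 4.

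Every mRNA of the mitochondrial genome was higher under ISO. All 13 lay at least 1.5-fold above the all-gene median (background 5.73%), the list median was 1.16 above it, and 5 were at least 2-fold higher. Mitochondrial mRNAs took 6.93% of the control fragments and 11.7% of the ISO fragments. MT-CYB, the cytochrome b of complex III, went from 2425 to 5463 FPKM, 2.25-fold higher (2.23 to 2.28). MT-CO2, a core subunit of cytochrome c oxidase, went from 9287 to 19221 FPKM, 2.07-fold higher (2.05 to 2.09), while MT-CO1, the most abundant, went from 15990 to 22202 FPKM, 1.39-fold higher (1.38 to 1.39). Among the complex I genes the folds ran from 1.32 for MT-ND6, the only mRNA of the other strand, to 2.06 for MT-ND4L. MT-ATP6 of ATP synthase went from 3800 to 7678 FPKM. MT-ATP6 and MT-ATP8 overlap on the same strand, so fragments from their shared stretch cannot be told apart.

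The mitochondrial rRNAs differed from the mRNAs. MT-RNR2, the large rRNA, stood at 14877 and 14833 FPKM and MT-RNR1, the small one, at 1383 and 1551 FPKM, so the pair held 2.45% and 2.46% of fragments. Relative to the all-gene median these 2 rRNAs lay 0.28 and 0.45 above, short of 1.5-fold. How the mRNA selection of the library kit treats these rRNAs was not tested.

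Of 22 mitochondrial tRNAs 14 were in the table, with a median of 1.18 above all genes and 10 at least 1.5-fold above it (background 5.73%), but many rested on few fragments. MT-TL1, the leucine tRNA between MT-RNR2 and MT-ND1, went from 140 to 622 fragments, 4.24-fold higher (3.53 to 5.13). MT-TN, for asparagine, went from 3378 to 10189 fragments, 2.88-fold higher (2.77 to 2.99). MT-TD, for aspartate, had 9 and 70 fragments, 7.43-fold higher with a wide interval (3.70 to 16.9). MT-TY, by contrast, stood at 433 and 456 fragments and MT-TS1 at 26 and 26. The tRNAs lie against the mRNAs and rRNAs, and fragments that span a junction may count for either. The 3 tRNAs with the largest ratios are shown from GENCODE 29 (GRCh38), with the anticodon in capitals, found as the middle of a 7-base loop closed by a 5-pair stem.
MT-TD, chrMT:7518-7585, plus strand: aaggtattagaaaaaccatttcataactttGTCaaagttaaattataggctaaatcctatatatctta
MT-TL1, chrMT:3230-3304, plus strand: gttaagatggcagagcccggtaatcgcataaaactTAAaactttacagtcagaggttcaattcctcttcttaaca
MT-TN, chrMT:5657-5729, minus strand: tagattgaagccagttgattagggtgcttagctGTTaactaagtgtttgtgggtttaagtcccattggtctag
MT-TL1 has 1 mismatch in that stem and the others have 0.

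**Figure D3:**
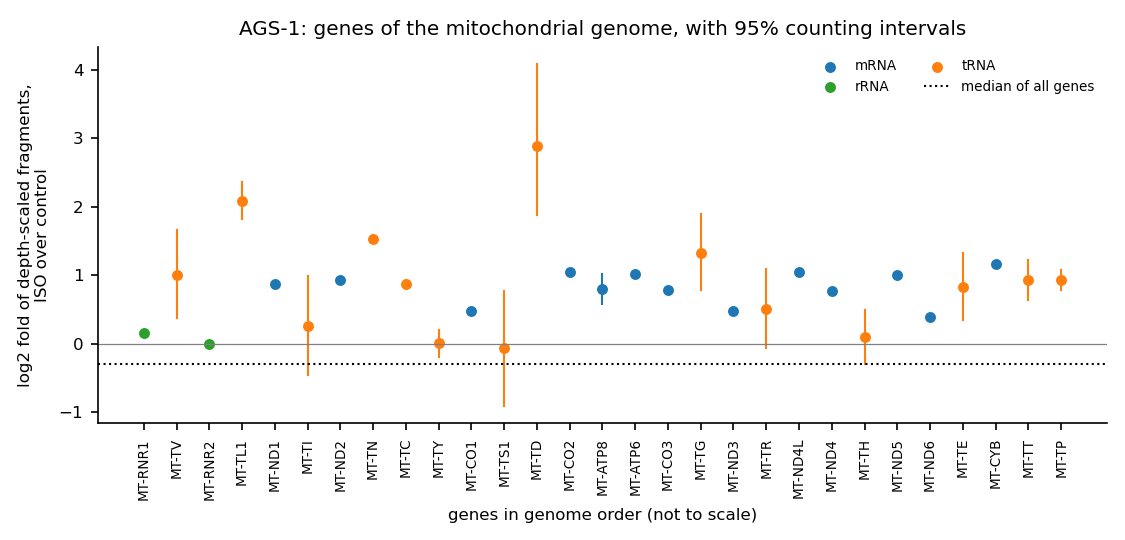
Log2 fold of depth-scaled fragments, ISO over control, for the 29 mitochondrial genes in genome order (mRNA blue, rRNA green, tRNA orange), with bars for 95% counting intervals. The 13 mRNAs lie between 1.32-fold and 2.25-fold, and MT-TD has the widest interval at the high end. Both rRNAs lie near 0 on the log2 scale, above the all-gene median (dotted).

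Nuclear genes of the same organelle stayed near the background. Of 71 nuclear respiratory chain genes 44 were in the table, with a median of 0.05 below all genes and 1 past 1.5-fold above (background 5.73%). COX4I1, a cytochrome c oxidase subunit, went from 61.5 to 39.7 FPKM, a log2 ratio 0.33 below the median. CYCS, cytochrome c, was at 16.5 and 15.6 FPKM. The 47 genes of the mitochondrial ribosome and import had a median of 0.00 relative to all genes, with none past 1.5-fold in either direction.

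Iron and protein folding genes held some of the largest single rises. Of 16 iron handling genes 5 were in the table, with a median of 0.29 above all genes, 2 at least 1.5-fold above it (background 5.73%) and 1 member below the median. TFRC, the transferrin receptor that brings iron into the cell, went from 13.2 to 32.0 FPKM, 2.42-fold higher (2.29 to 2.57). FTH1, the ferritin heavy chain that stores it, went from 182 to 327 FPKM, 1.79-fold higher (1.73 to 1.85). HSPA8, the constitutive Hsc70 chaperone, went from 54.5 to 122 FPKM, 2.23-fold higher (2.15 to 2.32), and it was the only one of 26 chaperone genes past 2-fold. LIF, a cytokine of the interleukin 6 family, went from 41.0 to 91.8 FPKM. PGD, an NADPH-producing enzyme of the pentose phosphate pathway, went from 35.0 to 63.9 FPKM, and of 20 pentose phosphate and citric acid cycle genes 2 lay past 1.5-fold above the median (background 5.73%).

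The antioxidant genes under NRF2 lay near the background as a list. Of 43 such genes 25 were in the table, with a median of 0.04 above all genes, 2 at least 1.5-fold above it (background 5.73%), PGD being 1 of them, and 2 at least 1.5-fold below (10.1%). NQO1, a quinone reductase, was at 180 and 152 FPKM, and GPX1, a glutathione peroxidase, went from 244 to 119 FPKM. In the endoplasmic reticulum list (31 of 41, median 0.13 above) the chaperone gene HSP90B1 went from 252 to 117 FPKM and PDIA4 from 413 to 206 FPKM. SYVN1, the ubiquitin ligase of ER degradation, and SEC61A1, of the translocon, stood at 14.3 and 22.1 FPKM and at 76.2 and 98.2 FPKM.

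Tight junctions were lower. Of 23 tight junction and polarity genes 5 were in the table, so the list is thin, and 4 of the 5 lay at least 1.5-fold below the all-gene median (background 10.1%), with a median of -1.16 relative to it. ESAM, an adhesion molecule of junctions, went from 33.5 to 7.36 FPKM, 4.55-fold lower (4.05 to 5.14). CLDN2, a claudin that forms a cation pore, went from 86.0 to 25.7 FPKM, 3.35-fold lower (3.15 to 3.56). CGN, cingulin of the junction plaque, went from 87.4 to 31.4 FPKM, 2.78-fold lower (2.67 to 2.89), and CLDN1 from 68.6 to 35.7 FPKM. CLDN4 was the exception at 218 and 225 FPKM. Of 22 desmosome and adherens junction genes 9 were in the table, with a median 0.22 below all genes, or 0.13 below when centred within level bins. That list had 1 of 9 at least 1.5-fold below, near the background of 10.1%: PPL, periplakin, from 59.8 to 24.8 FPKM.

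Keratins followed. Of 15 keratin and intermediate filament genes 8 were in the table, with 4 at least 1.5-fold below the all-gene median (background 10.1%) and a median of -0.60 relative to it. Centred within level bins that median was -0.31. KRT17, a keratin of stressed and basal epithelium, went from 42.4 to 11.9 FPKM, 3.58-fold lower (3.26 to 3.94), and KRT80 from 70.3 to 23.7 FPKM. KRT7 went from 4.02 to 0.533 FPKM. The paired keratins of simple epithelium, KRT8 and KRT18, stood at 508 and 341 FPKM and at 559 and 296 FPKM.

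The actin cytoskeleton was lower as a list. Of 56 actin, actin-binding and myosin genes 41 were in the table, 13 at least 1.5-fold below the all-gene median (background 10.1%), 8 at least 2-fold lower (6.63% of all genes) and 0 past 1.5-fold above. Its median was -0.42 relative to all genes and -0.21 when centred within level bins. ACTB, beta-actin and a usual reference gene, went from 1390 to 513 FPKM, 2.71-fold lower (2.68 to 2.74), and ACTG1 from 644 to 292 FPKM. VASP, which lengthens actin filaments, went from 192 to 57.9 FPKM, 3.32-fold lower (3.19 to 3.45), and SYNPO, which stiffens them, from 33.4 to 10.0 FPKM. VCL, vinculin, which ties filaments to adhesions, went from 48.6 to 22.0 FPKM, and EZR, ezrin of microvilli, from 456 to 225 FPKM. GAPDH, another reference gene, had 596 and 536 FPKM, which is 0.13 above the all-gene median. The 13 tubulin and microtubule genes in the table had a median of 0.10 below all genes, and TUBA1B was at 74.5 and 77.7 FPKM.

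Matrix attachment genes were lower too. Of 23 hemidesmosome, laminin and integrin genes 18 were in the table, 6 at least 1.5-fold below the all-gene median (background 10.1%) and 0 above (5.73%), with a median of -0.38, or -0.25 when centred within level bins. SDC4, a syndecan of focal adhesions, went from 414 to 163 FPKM, 2.55-fold lower (2.48 to 2.62). LAMB3, a chain of laminin 332, went from 323 to 135 FPKM, 2.40-fold lower (2.34 to 2.46). Its receptor subunit ITGB4 went from 237 to 108 FPKM and PLEC, plectin, which links that integrin to keratin, from 211 to 97.8 FPKM.

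Annexins and S100 proteins, calcium-binding partners at the membrane, had 14 of 22 genes in the table, with 9 at least 1.5-fold below the all-gene median (background 10.1%) and a median of -0.65. S100A4, linked to cell motility, went from 35.5 to 7.29 FPKM, 4.87-fold lower (3.95 to 6.03). S100A6 was among the most abundant mRNAs, at 2412 and 1111 FPKM, 2.17-fold lower (2.13 to 2.21). S100P went from 586 to 239 FPKM and ANXA2 from 275 to 121 FPKM.

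**Figure D4:**
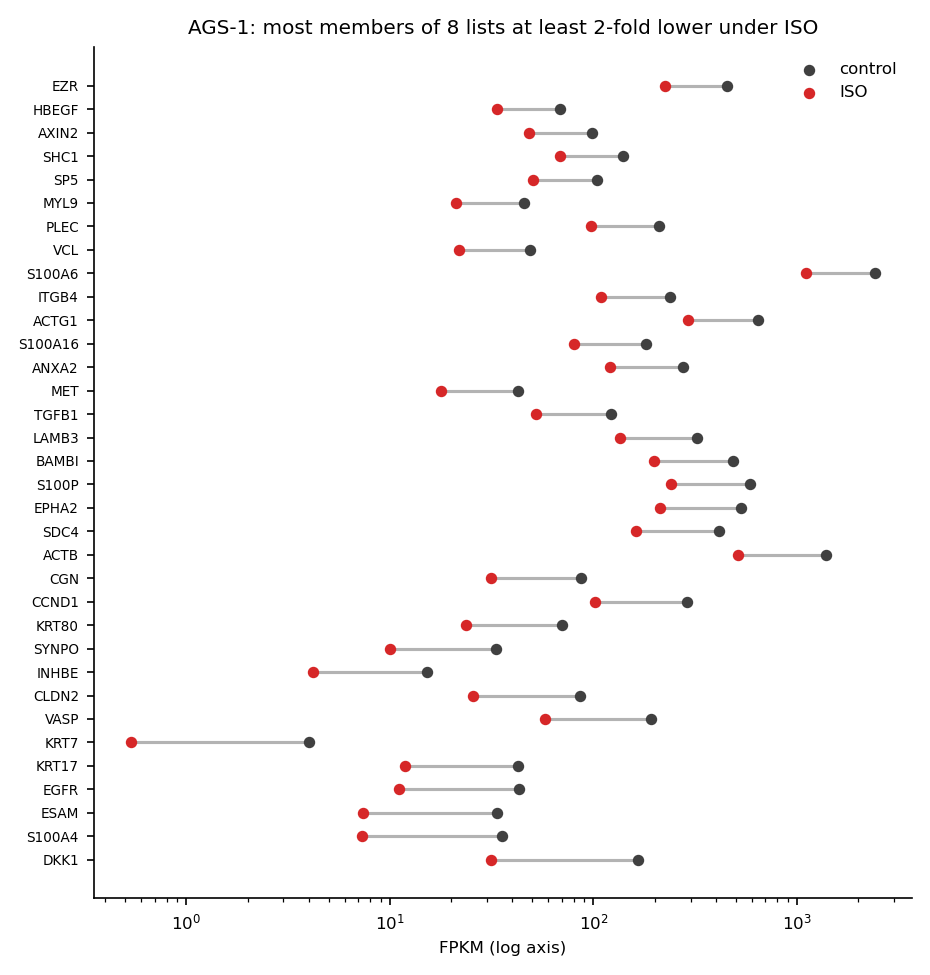
FPKM on a log axis in the AGS-1 control (black) and ISO (red) libraries for most members at least 2-fold lower in 8 lists: tight junctions, keratins, actin, hemidesmosome with laminin and integrin, annexins and S100, receptor tyrosine kinases, Wnt and TGF-beta. Genes are ordered by log2 ratio, from EZR (456 to 225 FPKM) to DKK1 (165 to 31.4 FPKM).

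Receptors and signalling genes were lower in several pathways. Of 25 genes of receptor tyrosine kinase signalling, which are receptors, ligands and cytosolic partners, 16 were in the table, with 6 at least 1.5-fold below the all-gene median (background 10.1%) and 0 above (5.73%). The other 10, some receptors among them, lay within 1.5-fold of it, and the list median was -0.28. EGFR, the epidermal growth factor receptor, went from 43.0 to 11.1 FPKM, 3.86-fold lower (3.68 to 4.05), and its ligand gene HBEGF from 68.8 to 33.5 FPKM. MET, the receptor of hepatocyte growth factor, went from 42.6 to 17.9 FPKM, 2.39-fold lower (2.27 to 2.52), and EPHA2, an ephrin receptor, from 532 to 212 FPKM. The immediate early and MAPK feedback genes lay near the background as a list. Of 28 such genes 20 were in the table, with a median of -0.10, which turned to 0.10 when centred within level bins. In that list 3 lay at least 1.5-fold below (background 10.1%) and 1 above (5.73%). DUSP6, a phosphatase that ERK signalling induces, went from 91.1 to 41.8 FPKM, while JUN stood at 253 and 213 FPKM and ATF3 went from 54.9 to 73.3 FPKM.

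Of 28 Wnt genes 10 were in the table, with 6 at least 1.5-fold below the all-gene median (background 10.1%) and a median of -0.70, or -0.49 when centred within level bins. DKK1, a secreted Wnt inhibitor and target gene, went from 165 to 31.4 FPKM, 5.26-fold lower (4.93 to 5.61). CCND1, cyclin D1, went from 289 to 102 FPKM, 2.83-fold lower (2.75 to 2.90), and MYC from 99.3 to 50.3 FPKM. AXIN2, the feedback inhibitor that is a usual readout of the pathway, went from 98.8 to 48.4 FPKM and SP5 from 104 to 50.7 FPKM. Of 24 TGF-beta, activin and BMP genes 7 were in the table, 4 of them at least 1.5-fold below (background 10.1%) and 1 above (5.73%), with a median of -0.93. The list was split, with 3 members above the all-gene median and 4 below, and over the 4 members of 20 FPKM or more the median was -0.36. INHBE, an activin chain, went from 15.2 to 4.18 FPKM. BAMBI, a decoy receptor, went from 484 to 199 FPKM, and TGFB1 from 122 to 51.9 FPKM. ID2 lay above the median at 15.7 and 24.0 FPKM.

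Of 21 Hippo genes 8 were in the table, with a median of -0.51, 3 at least 1.5-fold below the all-gene median (background 10.1%) and 0 above (5.73%). AJUBA went from 100 to 37.8 FPKM and YAP1, the coactivator, from 80.7 to 41.4 FPKM. Of the targets of YAP1, CCN2 stood at 130 and 108 FPKM and ANKRD1 at 145 and 152 FPKM, which is 0.02 and 0.35 above the all-gene median.

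Nutrient carriers held single large falls. Of 46 solute carrier and channel genes 27 were in the table, with a median 0.18 below all genes, yet 7 were at least 1.5-fold below it (25.9%, background 10.1%). SLC2A1, the glucose carrier GLUT1, went from 545 to 224 FPKM, 2.44-fold lower (2.40 to 2.47). SLC16A3, which exports lactate, went from 69.5 to 26.1 FPKM. The amino acid carriers SLC7A5 and SLC1A5 stood at 419 and 181 FPKM and at 549 and 245 FPKM, and ATP1B1, of the sodium pump, from 499 to 185 FPKM. The glycolysis list, 17 of 21 genes in the table, had a median of 0.11 above all genes, with 1 member at least 1.5-fold above it (background 5.73%) and 3 below (background 10.1%): SLC2A1, SLC16A3 and HK2.

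Most integrated stress response genes lay below the all-gene median, 14 below against 5 above. Of 26 genes 19 were in the table, with a median of -0.38, or -0.21 when centred within level bins, 5 at least 1.5-fold below all genes (background 10.1%) and 1 above (5.73%). TRIB3 and INHBE were among the lower members, as given with the falls and with TGF-beta, and PSAT1, of serine synthesis, went from 358 to 185 FPKM. DDIT3, which encodes CHOP, was the member at least 1.5-fold above, at 20.3 and 28.3 FPKM. Of 20 aminoacyl-tRNA synthetase genes 15 were in the table, with a median of -0.31, or -0.25 when centred within level bins. They had 12 members below the all-gene median and 3 above. Only 2 lay at least 1.5-fold below (13.3%, near the background of 10.1%). Among the lower members, SARS1 went from 146 to 60.0 FPKM and YARS1 from 63.4 to 30.5 FPKM.

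Of 20 histone genes 9 were in the table, with a median of 0.09 above all genes and 2 at least 2-fold lower (6.63% of all genes). The direction of that median was not stable, with -0.19 as its lowest value under the other settings. H1-10, a linker histone, went from 284 to 105 FPKM, 2.70-fold lower (2.58 to 2.83), while H2BC12 went from 12.3 to 18.1 FPKM. Of 24 interferon and antigen presentation genes 10 were in the table, with a median of -0.30, 4 at least 1.5-fold below all genes (background 10.1%) and 1 above (5.73%). ISG15, a ubiquitin-like modifier, went from 673 to 261 FPKM, 2.58-fold lower (2.48 to 2.68), and STAT2, a signal carrier of interferon, lay above the median at 13.9 and 21.2 FPKM. Of 41 gastric and intestinal lineage genes 11 were in the table, 5 above the all-gene median and 6 below. Their median was -0.28, or -0.12 when centred within level bins, with 3 at least 1.5-fold below (background 10.1%) and 0 above (5.73%). Among the lower members, SOX9 went from 274 to 138 FPKM and FOXA3 from 66.7 to 32.9 FPKM.

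Mitosis, DNA replication and p53 target genes stayed near the background as lists. Of 39 mitosis genes 34 were in the table, with a median 0.21 above all genes and 3 past 1.5-fold above (background 5.73%), among them CKS2, a Cdk subunit, at 48.8 and 89.4 FPKM. The 27 DNA replication genes had a median of 0.02 below, with CDC6, the licensing factor, at 27.7 and 13.2 FPKM. Of 21 genes of G1 cyclins and cell cycle inhibitors 14 were in the table, with a median of 0.02 above all genes, yet 4 lay at least 1.5-fold below it (background 10.1%) and 1 above. Besides CCND1 and MYC, CCND3 and CDK6, a cyclin and a kinase of the G1 phase, went from 22.5 to 10.3 FPKM and from 37.1 to 18.5 FPKM, while CDKN2C, an inhibitor of that kinase, stood at 0.848 and 2.28 FPKM. CDKN1A, the p21 inhibitor and a p53 target, was at 196 and 179 FPKM, and the 11 p53 target genes in the table had none past 1.5-fold. Of 38 apoptosis genes 16 were in the table, with a median of 0.11 below all genes, which turned to 0.02 above when centred within level bins, and 3 at least 1.5-fold below (background 10.1%). BAX, which opens the mitochondrial outer membrane, was at 143 and 103 FPKM, 0.17 below the all-gene median. BCL2L1, which encodes the survival protein BCL-xL, went from 197 to 78.1 FPKM, 2.52-fold lower (2.44 to 2.61), and MCL1 from 310 to 176 FPKM. PARP1 was at 15.4 and 12.7 FPKM. BCL2 and PPARG were not analysed here.

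Ribosomal protein genes were slightly lower than the background. Of 79 such genes 69 were in the table, 61 of them below the all-gene median, with a median of -0.26 relative to it and 3 at least 1.5-fold below (background 10.1%). Centred within level bins the median was -0.07. They took 4.57% of the control fragments and 3.03% of the ISO fragments. The proteasome (24 of 39 genes, 0.03 above), splicing factors (55 of 70, 0.08 above), translation factors (32 of 42, 0.07 below) and ribosome biogenesis (19 of 31, 0.02 below) lay close to the median.

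**Figure D5:**
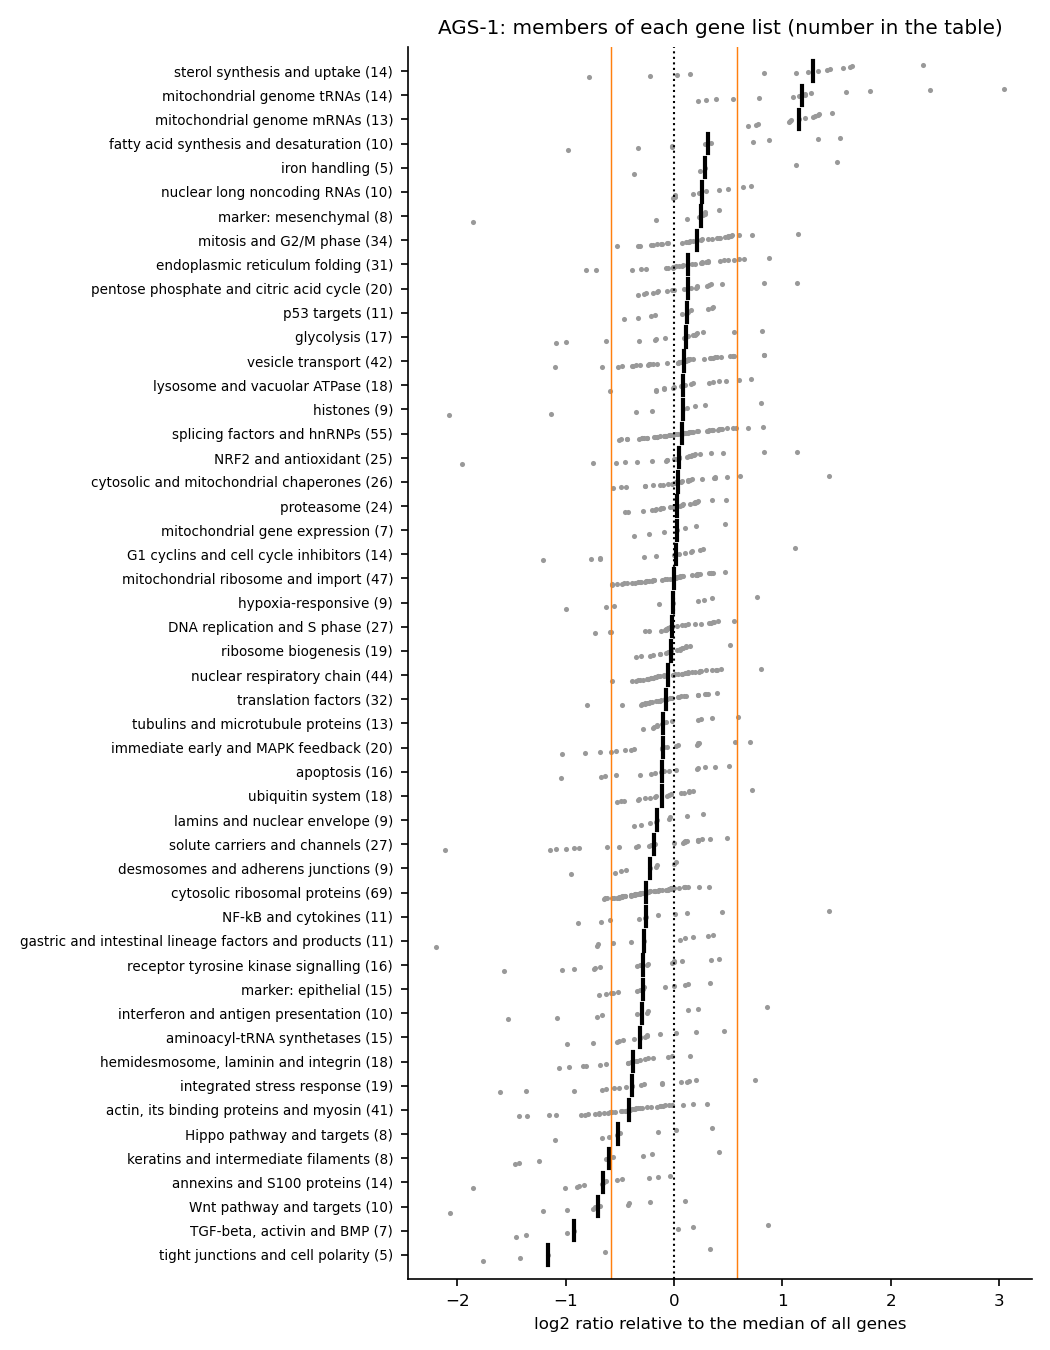
Log2 ratio relative to the all-gene median (dotted) for each member (grey) of the gene lists with at least 5 members in the table, with list medians as black bars and orange lines at 1.5-fold. Sterol synthesis lies highest, at 1.29 (0.57 for its members of 20 FPKM or more), and tight junctions lowest, at -1.16.

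Protein domains, taken from the Pfam names in the table, are given for groups of at least 8 genes, many of which also belong to the lists above. LIM domain genes (10) had a median of -0.59 relative to all genes and calponin homology genes (15) of -0.35. Many members of both kinds, though not all, bind actin or adhesions. Intermediate filament genes (11), largely the keratins already described, stood at -0.37. At the other end lay the DEAD-box helicases (13) at 0.29 and the kinesins (9) at 0.32. Centring within level bins left LIM genes at -0.50 and DEAD-box helicases at 0.29 but moved calponin homology genes to -0.15, intermediate filaments to -0.12 and kinesins to 0.07.

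Beside HGC-27, the other line, some of these values ran alongside and some did not, and the difference was not tested. With AGS-1 first and HGC-27 second, log2 ratios were 1.22 and 1.91 for TFRC, 1.14 and 2.14 for HSPA8, -2.24 and -3.02 for TXNIP, and -2.36 and -1.10 for DKK1. The mitochondrial mRNAs lay 1.16 above the all-gene median in AGS-1, against 0.70 in the other line. INSIG1 stood at 2.02 and -0.26, and its control level was 3.99 FPKM in AGS-1 and 48.1 FPKM in HGC-27. EGFR stood at -1.86 and 0.16, on a control level of 0.974 FPKM in HGC-27.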

How the data were processed

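RNA was taken up in TRIzol, purified with an RNeasy kit, made into libraries with the VAHTS mRNA-seq V3 kit and sequenced on a NextSeq. The deposited FPKM values are those of the authors. The submitters' processing notes name CASAVA 1.8, HISAT2 and GRCh38 (hg38). The counting program, the annotation, strand use and the rule that selected 2897 genes are not given in the sources used here. Of these genes 52 had no name, 21 of them unannotated models and 31 others.

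Fragments were recovered from the FPKM values, gene lengths and the smallest step per library, and 100% of values were whole within 0.01 of a fragment. Log2 ratios used FPKM + 1. Intervals are exact conditional binomial (Clopper-Pearson) at 95%, for counting error only. Lists of at least 5 members in the table were described by counts and medians beside all genes. The column of the table headed as transcription factor family holds Pfam domain names. Scripts ran on Python 3.11.15 with matplotlib 3.10.9, scipy 1.17.1, pandas 2.3.3 and numpy 2.4.6, and tRNA sequences came from GENCODE 29, and steps were tested on simulated data.

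Named genes were the 15 largest rises and 15 largest falls with a mean of at least 1 FPKM, list members at least 2-fold changed or 1.5-fold from the all-gene median, the 2 most abundant members of each list, the 3 most abundant genes of each biotype or chromosome singled out, marker genes and genes the study measured. Promoter sequences and domain groups were looked at after the values were seen. Some named genes are not reported here. Members and lists were chosen with earlier results of these data known. Alternatives were pseudocounts of 0.1 and 5 FPKM, 3 scalings, filters at 1 and 20 FPKM and protein-coding genes, with centring within level bins added after seeing the data.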

Additional observations from a re-analysis of the deposited data

Results flagged for a closer look

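The direction in AGS-1 was set beside that in HGC-27, with 1 library on each side of both lines, so none of these differences was tested. The sterol synthesis list had a median of 1.29 above all genes in AGS-1 and 0.09 below all genes in HGC-27. The mitochondrial tRNA list stood at 1.18 in AGS-1 and at -0.05 in HGC-27. The tight junction list stood at -1.16 in AGS-1 and at 0.20 in HGC-27, where the median control level of its 5 members was 0.927 FPKM, so the second value rests on genes near 0. ESAM had a log2 ratio of -2.05 in AGS-1 and of 0.63 in HGC-27, where it was at 1.63 FPKM in the control and 3.07 FPKM under ISO.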

How the results depend on the processing

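The all-gene median of -0.29 was -0.25 with a pseudocount of 5 FPKM and -0.37 when the mean had to reach 20 FPKM. It was 0.00 under median-of-ratios scaling, 0.10 under upper-quartile scaling and 0.15 with equal sums outside the mitochondrial genome, the last 2 of them on the other side of 0. Genes at least 2-fold higher and lower numbered 54 and 67, 62 and 44, and 77 and 38 under these 3 scalings. They numbered 53 and 51 when centred within level bins, a setting chosen after seeing the data. The cause of these moves was not tested.

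Of all 50 lists, 42 kept the direction of their median under every setting but the centring, and 45 kept it under the centring. Hypoxia-responsive genes, mitochondrial ribosome and import, histones, DNA replication and G1 cyclins turned only under the former. Immediate early and MAPK feedback genes and apoptosis turned only under the centring. Translation factors, ribosome biogenesis and mesenchymal markers turned under both. Of the 8 lists with a median at least 1.5-fold from all genes, 8 kept their direction under every setting. Past 1.5-fold under every scaling, pseudocount and filter stayed 4: mitochondrial mRNAs and tRNAs, tight junctions and Wnt. The scalings shift a list and all genes almost alike, apart from genes of low level, where the added FPKM matters. They could therefore hardly move a median taken relative to all genes, and are little test of it. The counts of 42, 8 and 4 rest mainly on the pseudocounts, the filters and the protein-coding setting. When the mean had to reach 20 FPKM, sterol synthesis stood at 0.57, TGF-beta at -0.36, keratins at -0.51 and annexins and S100 proteins at -0.58. After centring within level bins 6 stayed past 1.5-fold, with keratins at -0.31 and Wnt at -0.49. That centring moved the medians of mitochondrial mRNAs to 1.44, actin to -0.21, endoplasmic reticulum folding to 0.32, chaperones to 0.21, NRF2 genes to 0.17 and ribosomal proteins to -0.0694. Over protein-coding genes only, the nuclear noncoding RNA list, 0.26 over its 10 members, stood at 0.71, which is the value of 1 gene, TUG1.

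The lowest level bin, 0.28 above all genes, moved to 0.29 with a pseudocount of 0.1 FPKM and to 0.19 with a mean of 1 FPKM or more. Under the 3 scalings, in the order above, it stood at 0.0494, 0.0284 and 0.00674. When the mean had to reach 20 FPKM, level bins 3 to 10 stood at 0.24, 0.12, 0.0817, 0.0274, -0.00399, -0.0770, -0.14 and -0.20. Of 94 named genes changed at least 2-fold, 94 kept their direction under every setting. The choice of genes fixed this outcome, so it is no test of stability. The scalings moved the all-gene median by at most 0.44 on the log2 scale, less than a 2-fold change.

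No paired analysis was possible for AGS-1 alone because each condition had only 1 library.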
